A study of Homo sapiens with 8 samples.

Results

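The nuclear genes for the subunits of oxidative phosphorylation were followed in 8 RNA sequencing libraries of LS174T, a long-established line of human colon adenocarcinoma cells. They were chosen by symbol: every protein-coding gene named NDUFA, NDUFAB, NDUFB, NDUFC, NDUFS or NDUFV with a number, the SDHA to SDHD genes, 7 genes of complex III, 10 named genes of cytochrome c oxidase and 9 of ATP synthase. This gave 68 genes of the 57736 listed, and all 68 passed the filter on low values that left 22100 genes for testing. NDUFA4 was counted with complex IV, where its protein is found despite its name, so complex I held 37 genes, complex II 4, complex III 7, complex IV 11 and complex V 9. The libraries came from 2 derivative lines in which doxycycline induces a short hairpin RNA. The hairpin of the first targets ASCL2, which encodes a stem cell transcription factor of the intestine, and that of the second targets the long non-coding RNA WiNTRLINC1. Each line was grown for 3 days without doxycycline or for 3 days with 1 ug/ml of it, and each of the 4 groups held 2 libraries. All 4 groups share the LS174T background and a hairpin construct. No doxycycline-treated cells without a hairpin were analysed here, so the effect of the drug and that of the hairpin cannot be told apart. Groups follow the sample titles, while the genotype given for each of the 8 samples is that of the other hairpin. Whether the replicates came from different cultures is not stated, so p-values rest on a spread between libraries that may be technical.

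Oxidative phosphorylation takes place in the inner mitochondrial membrane. Complexes I and II pass electrons from NADH and succinate to ubiquinone, complex III passes them on to cytochrome c, and complex IV passes them to oxygen. Complexes I, III and IV pump protons, and complex V, the ATP synthase, uses the proton gradient to make ATP. Most subunits are encoded in the nucleus and imported. In colonocytes the pathway oxidises fatty acids such as butyrate, and colon cancer cells run it beside glycolysis.

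Genes of this pathway are known for binding sites of NRF1, ETS-family factors such as GABPA, and YY1 near their start sites. RefSeq promoter sequences (GRCh38.p14), from 250 bases before to 50 bases after the start, were matched by symbol and chromosome for 55 of the 68 genes. The letters GCGCANGC, searched as an NRF1 motif on both strands, were in 22 of the 55 windows (40%) and in 16.7% of 15843 protein-coding promoters. The ETS letters CCGGAAG were in 14 windows (25.5%) against 14.2%, and the YY1 letters AANATGGCG in 14 (25.5%) against 4.81%. CCAAT was in 27.3% against 36.4%, GGGCGG in 61.8% against 58.5%, and TATAAA in 9.09% against 9.63%. Median GC content was 61.0% in these windows and 62.7% over all promoters. A match is a description of the letters and not a binding site. In these shares a window counted once per motif, however many matches it held.

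The promoters below are those of 5 genes to which the results return: SDHB and UQCRH, which were called higher in both lines, UQCRFS1 and SDHD, called lower in both, and COX7C, called in opposite directions. Each shows the 200 bases before the start, read 5′ to 3′ on the strand of the gene, and capitals mark NRF1 or ETS letters on either strand.
SDHB: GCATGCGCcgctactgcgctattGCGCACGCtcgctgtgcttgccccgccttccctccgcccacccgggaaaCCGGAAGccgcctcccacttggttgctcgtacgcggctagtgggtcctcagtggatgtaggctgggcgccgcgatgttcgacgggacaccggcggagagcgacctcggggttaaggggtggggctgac
UQCRH: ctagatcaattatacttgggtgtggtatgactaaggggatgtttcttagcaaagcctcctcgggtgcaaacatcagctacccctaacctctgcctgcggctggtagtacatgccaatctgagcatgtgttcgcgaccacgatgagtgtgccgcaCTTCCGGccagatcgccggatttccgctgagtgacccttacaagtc
UQCRFS1: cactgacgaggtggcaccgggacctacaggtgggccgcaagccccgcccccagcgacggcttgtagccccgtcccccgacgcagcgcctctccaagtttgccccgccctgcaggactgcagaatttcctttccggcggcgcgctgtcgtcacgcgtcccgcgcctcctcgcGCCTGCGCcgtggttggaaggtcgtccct
SDHD: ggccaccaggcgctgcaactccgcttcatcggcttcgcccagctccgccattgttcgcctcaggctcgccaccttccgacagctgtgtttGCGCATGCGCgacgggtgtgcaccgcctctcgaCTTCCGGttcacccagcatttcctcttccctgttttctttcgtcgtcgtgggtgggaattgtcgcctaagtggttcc
COX7C: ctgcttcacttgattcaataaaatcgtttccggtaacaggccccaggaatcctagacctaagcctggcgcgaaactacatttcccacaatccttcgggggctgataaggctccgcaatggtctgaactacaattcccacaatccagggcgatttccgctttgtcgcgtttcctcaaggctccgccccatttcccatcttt
These stretches lie at chr1:17054033-17054232 (minus strand), chr1:46303498-46303697 (plus), chr19:29213152-29213351 (minus), chr11:112086673-112086872 (plus) and chr5:86617741-86617940 (plus), in that order. SDHB and SDHD held both motifs, and their transcripts were called in opposite directions. In SDHD the pair of NRF1 matches overlap in the self-complementary run GCGCATGCGC. UQCRH held the ETS letters only, UQCRFS1 the NRF1 letters only, and COX7C neither. Split by the call in the ASCL2 line, the NRF1 letters were in 8 of 22 promoters of genes called higher (36.4%), 3 of 5 called lower (60.0%) and 11 of 28 not called (39.3%). The part of these motifs in the responses was not tested.

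Values are read counts that had been scaled per library and rounded before deposit, with totals of 21524463 to 22941231 per library and 31503 to 33959 genes above 0. The 68 genes held between 0.988% and 1.11% of each total. The lines were separated by the first principal component of all genes (73.3% of the variance). All 10 colon epithelial markers examined were at 10 or more in every library, and their summed value was 195177 to 215739 in untreated and 179429 to 198990 in treated libraries of the ASCL2 line, and 136271 to 142031 and 106188 to 106944 in those of the WiNTRLINC1 line. KRT8 and KRT18 made up most of that sum. In the ASCL2 line 6 of the 10 markers were called lower and none higher (6 and 0 at an unadjusted p under 0.05 in limma, median -0.41), with GPA33 at 16414 and 16693 untreated and 5450 in both treated libraries. In the WiNTRLINC1 line 4 were lower and 2 higher: KRT18 went from 38977 and 36188 to 8197 and 7734, while CDH17 went from 4588 and 4486 to 7372 and 7735. The summed value of 5 fibroblast markers was 245 to 257 in untreated and 113 to 127 in treated libraries of the ASCL2 line, and 57 to 58 and 28 to 52 in those of the WiNTRLINC1 line. In the ASCL2 line most of it was COL1A1, at 200 and 222 untreated and 60 and 99 treated. COL3A1 was at 42 and 25 against 41 and 26 there, and LUM, DCN and COL1A2 were at 6 or less. Immune, endothelial and striated muscle lists summed to 102 or less in every library, and none of the listed markers was at 0 throughout. The part of these shifts in the results was not tested, and in bulk RNA fewer cells of a type and less RNA per cell cannot be told apart. ASCL2 was at 2855 and 3373 in untreated and 532 and 586 in treated libraries of the ASCL2 line, a change of -2.47 ± 0.12 (log2, SE; adjusted p = 3.93e-09). In the WiNTRLINC1 line it was at 2540 and 2034 untreated and 805 and 697 treated (-1.60 ± 0.12, adjusted p = 3.46e-07). It was lower with doxycycline in both lines and so does not settle the label conflict.

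The order of the genes by level is given as value per kilobase of the longest coding transcript, averaged over the 8 libraries. Sums over a complex, and the values of copies or overlapping genes as a percent of a gene, are in deposited values and not per length. ATP5F1B, the catalytic beta subunit of ATP synthase, stood highest at 18450 per kilobase. The median level per kilobase was 940 in complex I, 1913 in complex II, 2476 in complex III, 2920 in complex IV and 3312 in complex V. Within complexes the range was wide. In complex I it ran from 31.2 for NDUFA7 to 4737 for NDUFS5, in complex III from 595 for UQCRB to 6624 for UQCRC1, and in complex IV from 578 for NDUFA4 to 9317 for COX8A. In complex II it ran from 159 for SDHC to 4051 for SDHA, and in complex V the lowest was ATP5MC2 at 632. A long annotated transcript lowers such a level where shorter forms are used.

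In the ASCL2 line most genes of complexes I, III and IV had changes above 0 with doxycycline, and both subunits of the catalytic ring of complex V fell. At an adjusted p under 0.05 in limma, 27 of the 68 genes were higher and 7 lower, and 34 did not pass, which is 50% called. Over all 22100 genes tested, 26.6% were called, 13.9% higher and 12.7% lower. Among 6019 protein-coding genes with mean values in the middle range of the 68 (705 to 6638, a range chosen after seeing the data), 46.9% were called, 26.6% higher and 20.3% lower. The share called was thus near that of genes of like level, while the split was 27 to 7. The median change was 0.19 (log2) with 53 of 68 above 0, against a median of 0.006 over all genes tested.

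**Figure D1:**
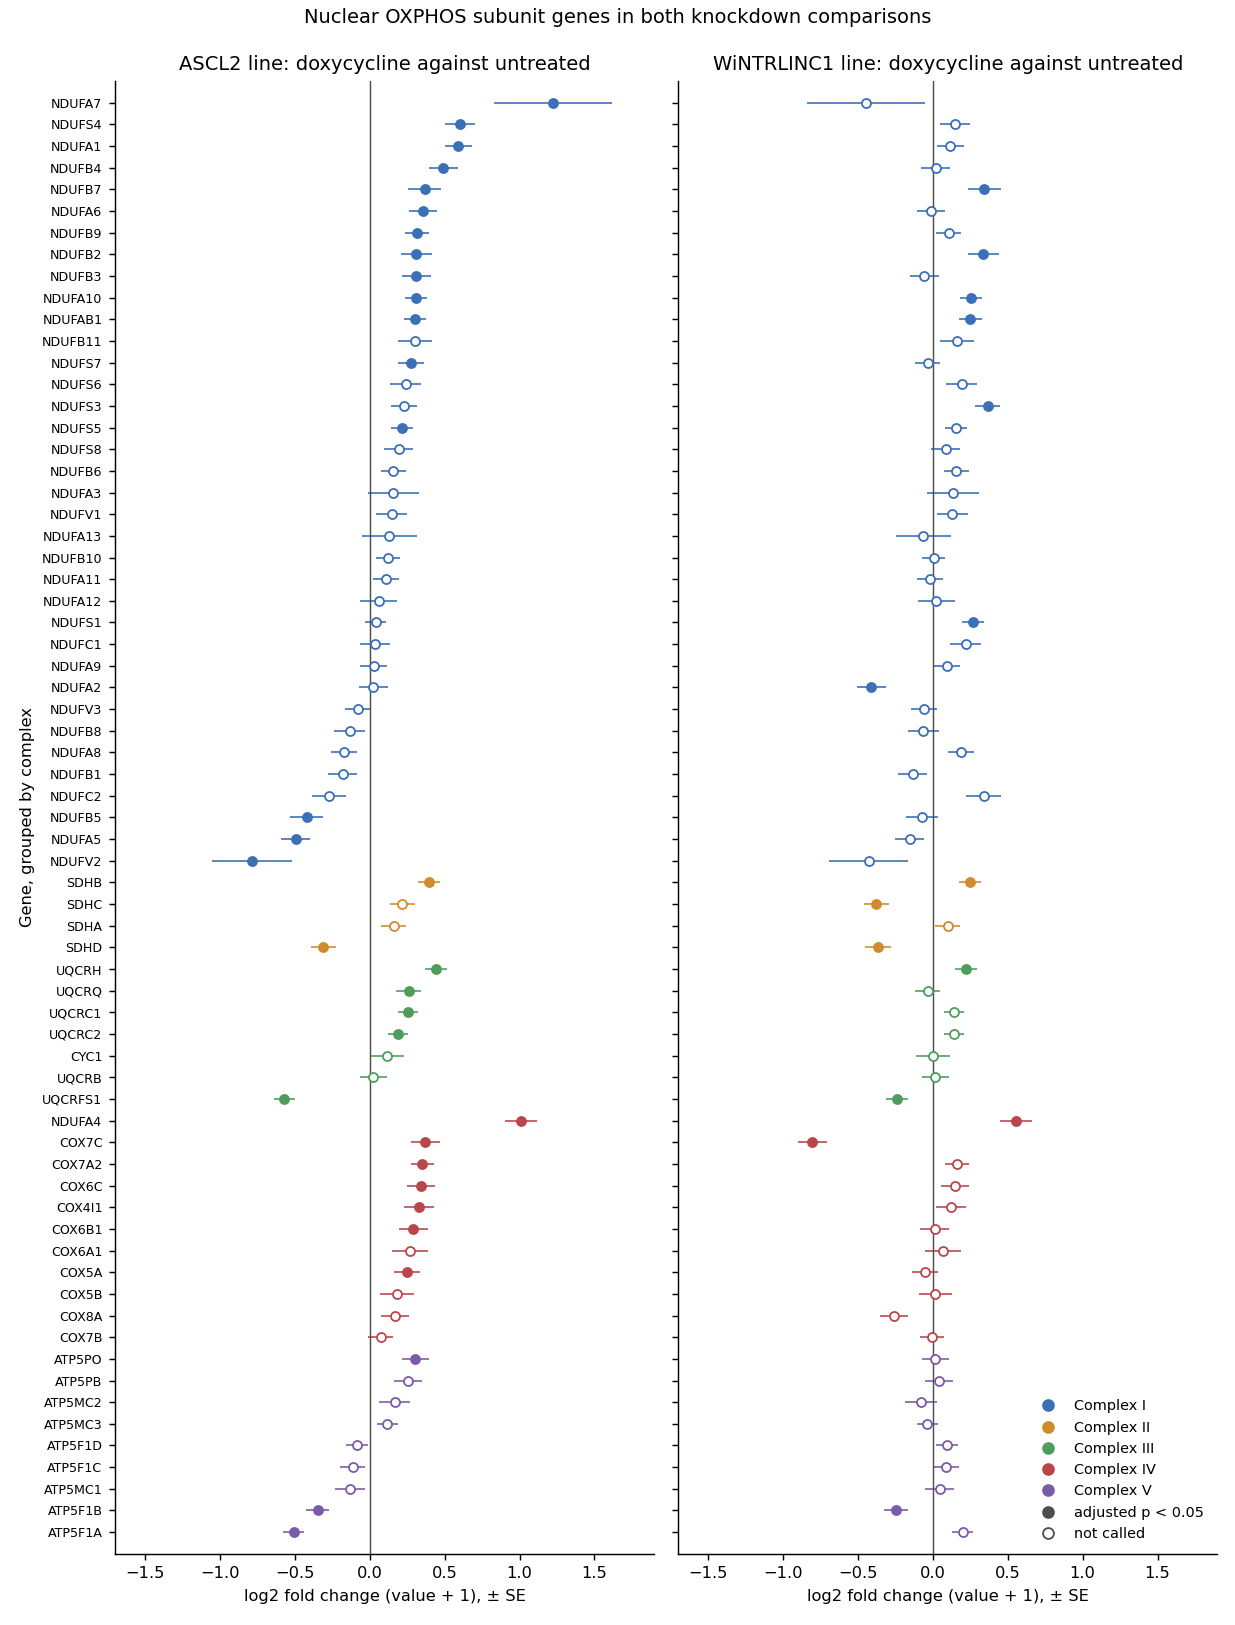
Log2 fold change of value + 1 (x axis, with its standard error) for 67 of the 68 genes (y axis, grouped by complex and ordered by the ASCL2 line) with doxycycline against untreated cells in the ASCL2 line (left) and the WiNTRLINC1 line (right), 2 libraries per group. Filled points passed the test: 33 of those drawn on the left, 26 of them above 0, and 15 on the right.

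Complex IV, which reduces oxygen, moved furthest in one direction. In the ASCL2 line all 11 of its genes lay above 0, 7 rose, none fell (0 below 0 at an unadjusted p under 0.05 in limma), and the median change was 0.29. NDUFA4 (ENSG00000189043, chromosome 7), an accessory subunit of complex IV, was at 1381 and 1331 in untreated and at 2611 and 2865 in treated libraries. The groups did not overlap, as in 57 of the 68 genes in this line, called or not. That share was not counted over all genes. The change of NDUFA4 was 1.01 ± 0.11 (log2, SE; adjusted p = 7.18e-06), or 2.02-fold. COX7A2, a small structural subunit, was at 2995 and 2817 untreated and 3574 and 3839 treated (0.35 ± 0.08, adjusted p = 0.0039). COX7C rose by 0.37 ± 0.10 (adjusted p = 0.0105), from 3435 and 3441 to 4290 and 4612. COX4I1, the subunit through which ATP regulates the enzyme, was at 10320 and 8884 untreated and 10730 and 13538 treated. It rose by 0.33 ± 0.10 (adjusted p = 0.0235), but its highest untreated and lowest treated values lay close together. COX6C, COX6B1 and COX5A also rose, by 0.25 to 0.34, and COX6A1, COX5B, COX8A and COX7B, at 0.07 to 0.27, did not pass.

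The second treated library of the ASCL2 line weighed on these calls. Its values exceeded those of the first treated library by a median of 0.10 (log2) over the 68 genes, with 53 of 68 higher, against 0.01 over all genes. Without it, 8 genes rose and 5 fell. Without the second untreated library 11 rose and 4 fell, without the first untreated library 17 rose and 6 fell, and without the first treated library 22 rose and 4 fell. COX4I1 had an adjusted p of up to 0.307 and COX7C of up to 0.12 over the alternative fits. NDUFA4, UQCRH, SDHB, NDUFA1, NDUFS4, NDUFB4, UQCRFS1, ATP5F1A and NDUFA5 were called in all 17 alternative fits, the only 9 of 25 called genes followed through them.

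Of the 37 genes of complex I, 14 rose, 3 fell and 20 did not pass in the ASCL2 line, with a median change of 0.16. NDUFS4, an accessory subunit needed for late assembly, went from 718 and 695 to 1045 and 1098 (0.60 ± 0.10, adjusted p = 0.00047). NDUFA1, a membrane subunit needed for assembly, went from 1170 and 998 to 1641 and 1619 (0.59 ± 0.09, adjusted p = 0.00018). NDUFB4 went from 1248 and 1359 to 1771 and 1892 (0.49 ± 0.10, adjusted p = 0.0018). In all 3 the treated libraries lay above both untreated ones, but groups did not overlap in 57 of the 68 genes in this line. Falls were seen in NDUFA5, a subunit of the peripheral arm, from 973 and 1041 to 733 and 696 (-0.49 ± 0.10, adjusted p = 0.0015), and in NDUFB5 from 1483 and 1572 to 1088 and 1193 (-0.42 ± 0.11, adjusted p = 0.0089). NDUFA7 and NDUFV2 carried the largest changes, 1.22 and -0.79, on the smallest values: NDUFA7 was at 12 and 11 untreated and 36 and 22 treated, and NDUFV2 at 52 and 46 untreated and 26 and 30 treated.

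Of the 7 core subunits of complex I, which hold its flavin and its iron-sulfur clusters, 6 lay above 0 in the ASCL2 line, with 2 called higher. The 1 called lower was NDUFV2, whose direction turned with the values of its copies added. NDUFS7, which carries an iron-sulfur cluster, went from 1889 and 1835 to 2178 and 2328 (0.27 ± 0.09, adjusted p = 0.0265). NDUFS1, the largest subunit, was at 3075 and 3072 untreated and 3287 and 3033 treated (0.04 ± 0.07, adjusted p = 0.74). NDUFV1, the NADH-binding subunit, was at 6714 and 6146 untreated and 6657 and 7597 treated (0.15 ± 0.10, adjusted p = 0.328). For both, the groups overlapped.

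In complex II, SDHB and SDHD went in opposite directions. SDHB, the iron-sulfur subunit, was at 3617 and 3777 untreated and at 4744 and 4996 treated (0.40 ± 0.08, adjusted p = 0.0012). SDHD, a membrane anchor, was at 1748 and 1873 untreated and 1444 and 1474 treated (-0.31 ± 0.09, adjusted p = 0.0135). SDHA, the flavoprotein that oxidises succinate, had a change of 0.16 ± 0.08 (adjusted p = 0.185), and SDHC, the other anchor, one of 0.22 ± 0.08 (adjusted p = 0.0625). In complex III, 4 of 7 genes rose: UQCRH, the hinge subunit, from 2528 and 2519 to 3381 and 3473 (0.44 ± 0.07, adjusted p = 0.00038), and UQCRC1, UQCRC2 and UQCRQ by 0.19 to 0.26. UQCRFS1, the Rieske iron-sulfur protein (ENSG00000169021, chromosome 19), was the 1 gene of the complex that fell, from 7526 and 8111 to 5286 and 5238 (-0.57 ± 0.07, adjusted p = 3.9e-05). CYC1, cytochrome c1, was at 3602 and 2849 untreated and 3237 and 3722 treated, with overlapping groups (0.12 ± 0.11, adjusted p = 0.507).

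Complex V did not lean upward, with 1 gene higher and 2 lower of 9 (2 and 2 at an unadjusted p under 0.05 in limma). Its median was -0.09, with 4 genes above and 5 below 0. Both genes that fell encode the catalytic ring. ATP5F1A (ENSG00000152234, chromosome 18), the alpha subunit, was at 20530 and 19169 untreated and 13980 and 13938 treated (-0.51 ± 0.07, adjusted p = 7.78e-05). ATP5F1B was at 32138 and 30110 untreated and 23419 and 25510 treated (-0.35 ± 0.08, adjusted p = 0.0040). The gene that rose was ATP5PO, of the peripheral stalk, from 1474 and 1425 to 1658 and 1930 (0.30 ± 0.09, adjusted p = 0.0209). The summed value of the complex went from 77451 ± 2624 to 66043 ± 3614 (SD, n = 2), while that of complex IV went from 39271 ± 2164 to 48384 ± 5206 (SD, n = 2). These sums were not tested. Most of the sum of complex V was ATP5F1A and ATP5F1B, with means of 19849.5 and 31124 untreated and 13959 and 24464.5 treated. Its fall is thus that of these 2 genes and not of the complex.

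**Figure D2:**
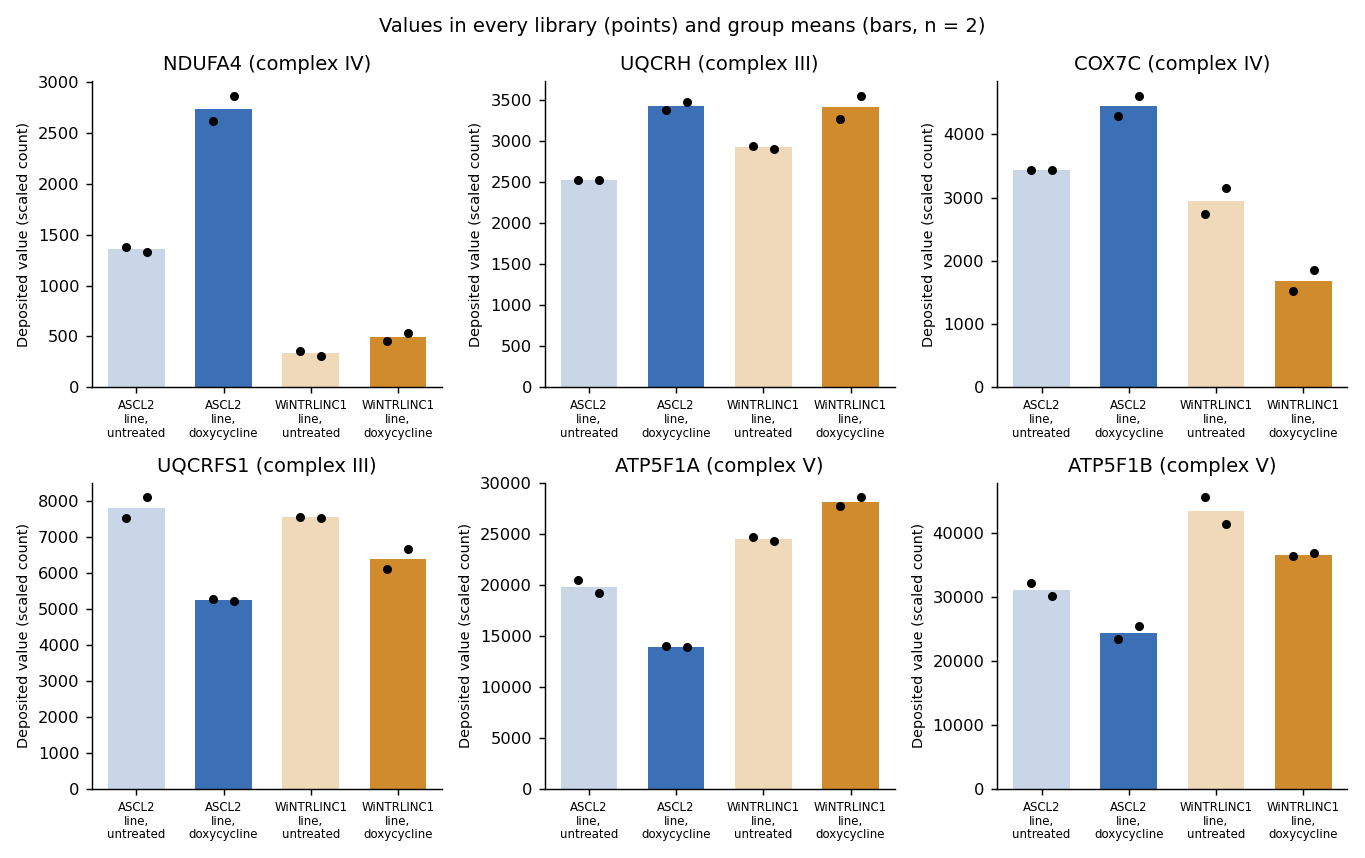
Deposited value (scaled read count, linear axis from 0) of 6 genes in the 4 groups, with points for the 2 libraries and bars for their mean. NDUFA4 and UQCRH are higher and UQCRFS1 and ATP5F1B lower with doxycycline in both lines, while COX7C is higher in the ASCL2 line and lower in the WiNTRLINC1 line, and ATP5F1A is lower in the ASCL2 line, with a change of 0.20 that did not pass in the WiNTRLINC1 line.

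In the WiNTRLINC1 line fewer of the genes passed the test: 10 rose, 6 fell and 52 did not pass, or 23.5% called. The background was 18.6% of all genes tested, 9.54% higher and 9.03% lower, and 34% among the coding genes of like value. The share is thus close to the background and below that of genes of like level. The median change was 0.06, and 43 of 68 lay above 0. Complex I had 7 genes higher and 1 lower of 37, complex II 1 and 2 of 4, complex III 1 and 1 of 7, complex IV 1 and 1 of 11, and complex V none higher and 1 lower of 9 (1 and 1 at an unadjusted p under 0.05 in limma).

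COX7C, a small subunit of complex IV (ENSG00000127184, chromosome 5), had the largest change in the WiNTRLINC1 line. Its groups did not overlap, as in 41 of the 68 genes in this line. It was at 2734 and 3145 untreated and 1517 and 1858 treated (-0.80 ± 0.10, adjusted p = 3.58e-05, or 1.75-fold lower). This was the call that held in all 17 alternative fits, out of 14 genes followed. NDUFA4 rose from 361 and 310 to 454 and 535 (0.56 ± 0.11, adjusted p = 0.0018), and did not pass without a mean-variance trend (adjusted p = 0.0582). Both membrane anchors of complex II fell: SDHC from 1956 and 2056 to 1454 and 1641 (-0.38 ± 0.08, adjusted p = 0.0046), and SDHD from 1376 and 1410 to 1019 and 1146 (-0.37 ± 0.09, adjusted p = 0.0071). SDHB rose from 2122 and 1970 to 2355 and 2501 (0.25 ± 0.08, adjusted p = 0.0321).

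In complex I of the WiNTRLINC1 line, 3 of the 7 core subunits rose, NDUFS3 and NDUFS1 among them. NDUFS3 went from 3767 and 3830 to 4634 and 5167 (0.37 ± 0.09, adjusted p = 0.0078). NDUFS1 went from 3257 and 3305 to 3919 and 3978 (0.27 ± 0.07, adjusted p = 0.0163). In both, the treated libraries lay above the untreated ones, but groups did not overlap in 41 of the 68 genes in this line. NDUFA2 was the 1 gene of the complex that fell, from 1460 and 1567 to 1054 and 1227 (-0.41 ± 0.10, adjusted p = 0.0080). NDUFA10, NDUFAB1, the mitochondrial acyl carrier protein, NDUFB2 and NDUFB7 rose by 0.25 to 0.34. UQCRFS1 fell from 7574 and 7544 to 6132 and 6685 (-0.24 ± 0.07, adjusted p = 0.0304), and ATP5F1B from 45595 and 41412 to 36455 and 36841 (-0.25 ± 0.08, adjusted p = 0.0396). CYC1 (-6.5e-05), COX4I1 (0.12), SDHA (0.10) and NDUFV1 (0.13) did not pass. Each library of the line carried part of these counts. Without the first or second untreated library 5 and 2 genes rose and 4 and 5 fell, and without the first or second treated library 3 and 2 rose and 1 and 5 fell. Fitted without the ASCL2 line, 5 rose and 4 fell.

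The knockdown comparisons use different control libraries, but the same estimate of spread per gene, over all 4 groups, serves both. Their calls are thus set side by side but are not independent. The genes called higher in both numbered 8, among them NDUFA10, NDUFA4, NDUFAB1, NDUFB2, NDUFB7, SDHB and UQCRH. They were 29.6% of the genes called higher in the ASCL2 line and 80% of those in the WiNTRLINC1 line. ATP5F1B, SDHD and UQCRFS1 were lower in both, 42.9% and 50% of the lower calls. Over all genes tested the shares were 30.1% and 43.9% for higher calls and 23.2% and 32.6% for lower ones, and among coding genes of like value 33.9% and 50.3%, and 28% and 35.4%. With 10 higher and 6 lower calls in the WiNTRLINC1 line, the shares of that line rest on few genes. Fitted without the ASCL2 line, NDUFB2, SDHB, UQCRH, ATP5F1B and UQCRFS1 lost their call in the WiNTRLINC1 line. NDUFA10, NDUFA4 and SDHD kept theirs. COX7C was the 1 gene called in opposite directions, and 38 of the 68 genes were called in at least 1 of the lines.

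**Figure D3:**
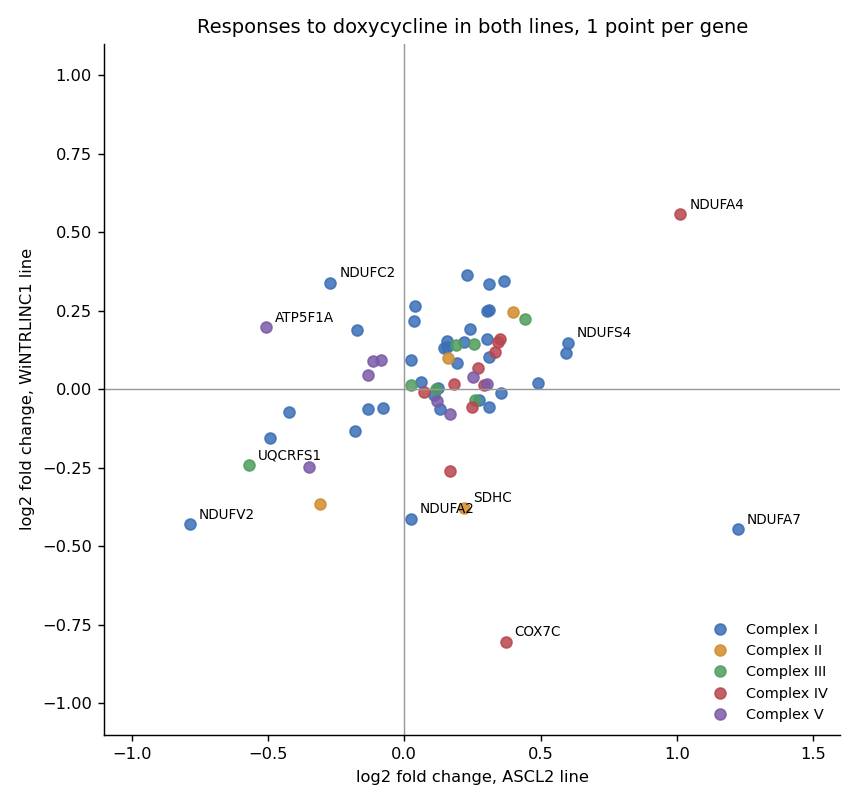
Log2 fold change in the ASCL2 line (x axis) against that in the WiNTRLINC1 line (y axis), 1 point for each of 67 genes, coloured by complex. NDUFA4 lies at 1.01 and 0.56 at the upper right, and COX7C at 0.37 and -0.80 at the lower right.

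The difference of the responses (WiNTRLINC1 line minus ASCL2 line) was tested as an interaction over all 8 libraries, which both knockdown comparisons share with it. Of the 68 genes, 10 passed, 3 above and 7 below 0, or 14.7%. The background was 15%, 7.39% above and 7.6% below, so the share was that of all genes. Rescaling the libraries changed the split: with median-of-ratios factors it was 3 above and 4 below, and with equal totals 4 above and 3 below. COX7C differed most, by -1.18 ± 0.14 (adjusted p = 3.86e-05). ATP5F1A differed by 0.71 ± 0.10 (adjusted p = 0.00016): in the WiNTRLINC1 line it was at 24719 and 24339 untreated and at 27702 and 28592 treated, a change of 0.20 ± 0.07 that did not pass (adjusted p = 0.0599). SDHC differed by -0.59 ± 0.12 (adjusted p = 0.0025). The fit of groups alone gives no interaction. COX7C and ATP5F1A were called in every other alternative fit, and SDHC in all of those except the fit without a trend (adjusted p = 0.0702). The other 7 each lost their call in at least 7 of these fits. All 11 genes of complex IV had a difference below 0, of which COX7C and COX8A passed. NDUFA4 differed by -0.45 with a 95% interval from -0.78 to -0.13 (adjusted p = 0.0567).

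Before any treatment the lines differed in most of these genes. In the untreated WiNTRLINC1 line 41 of the 68 were lower than in the untreated ASCL2 line, 10 were higher and 17 did not pass, or 75% called. Over all genes tested 55.2% were called, 25.7% higher and 29.5% lower, and among coding genes of like value 68.4%, 32.4% higher and 35.9% lower. The median difference was -0.33, against -0.04 over all genes. The share of lower calls differed by transcript length, as given below. These untreated libraries also enter the knockdown comparisons.

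**Figure D4:**
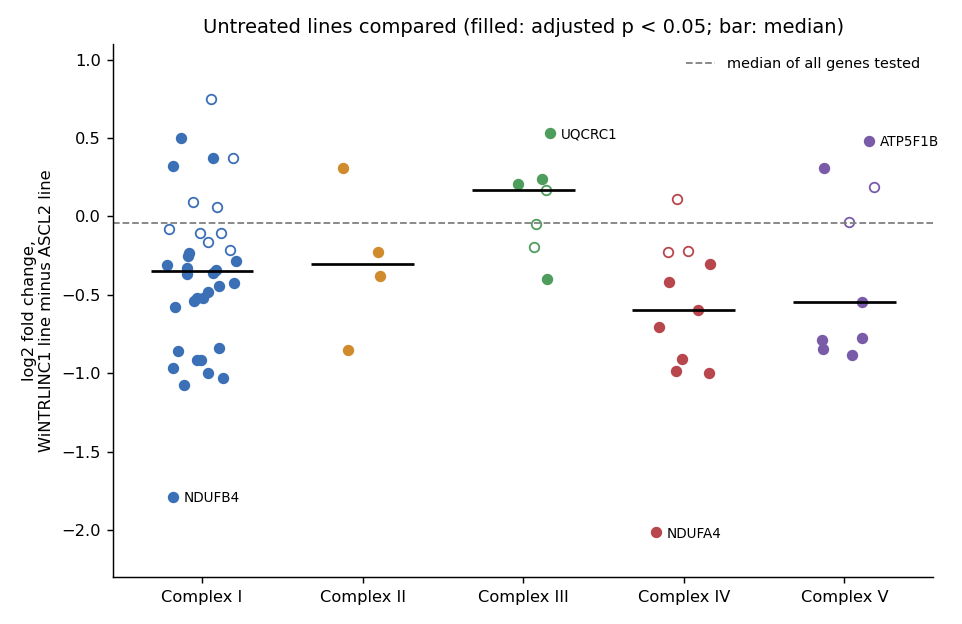
Log2 difference between untreated cells, WiNTRLINC1 line minus ASCL2 line (y axis), for 67 of the genes by complex (x axis). Filled points passed the test, bars are medians, and the dashed line is the median of all genes tested: complex III sits at 0.17 and complex IV at -0.60.

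Complex IV had the lowest median between the untreated lines, at -0.60, with 8 of 11 genes lower and none higher (10 and 0 at an unadjusted p under 0.05 in limma). NDUFA4 was at 1381 and 1331 in the ASCL2 line and at 361 and 310 in the WiNTRLINC1 line, which is 4.04-fold lower (-2.02 ± 0.11, adjusted p = 9.69e-10). COX8A (2-fold lower), COX6A1 (-0.99) and COX7B (-0.91) followed, while COX4I1 had a difference of 0.11 (adjusted p = 0.358). In complex V the median was -0.54. ATP5MC2, ATP5MC3, ATP5PB, ATP5PO and ATP5F1C were lower by 0.54 to 0.88 on the log2 scale, and ATP5F1A and ATP5F1B were higher, by 0.31 and 0.48. Complex III alone had a median above 0, at 0.17, with UQCRC1, UQCRC2 and UQCRH higher and CYC1 lower.

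In complex I 24 genes were lower and 4 higher in the untreated WiNTRLINC1 line, with a median of -0.34. Among the 30 accessory subunits 22 were lower and 2 higher (median -0.36), and among the 7 core subunits 2 were lower and 2 higher (median 0.09). NDUFB4 differed most, at 1248 and 1359 against 395 and 359 (-1.79 ± 0.10, adjusted p = 1.4e-09). NDUFA6 (-1.08) and NDUFA5 (-1.03) followed, and the core subunits NDUFS7 (-0.998) and NDUFS8 (-0.84) were also lower. NDUFS3, NDUFA1 and NDUFA10 were higher, by 0.32 to 0.50. In complex II, SDHB, SDHC and SDHD were lower (-0.85, -0.23 and -0.38) and SDHA higher (0.31).

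Transcript length moved with the difference between the lines. Among other coding genes of like value, the median difference was -0.46 for transcripts of up to 1000 bases, -0.22 for 1000 to 2000 bases and 0.03 above. The 68 genes had -0.34, -0.41 and -0.21 in these classes, which were chosen after seeing the data, with 27, 20 and 21 genes. Of the other genes in these classes, 63.6%, 49.2% and 32.3% were called lower between the lines, and 15.4%, 19.4% and 35.6% higher. Of the 68 genes, 17, 14 and 10 were lower and 2, 3 and 5 higher. In the ASCL2 line the other coding genes had median changes of 0.10, 0.05 and 0.04 and these genes 0.19, 0.25 and 0.11. In the WiNTRLINC1 line the values were 0.12, 0.04 and 0.02 against 0.02, 0.11 and 0.04. The part of length in these results was not tested further.

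The genes ATP5MC1, ATP5MC2 and ATP5MC3 encode the same mature subunit c of the ATP synthase rotor, with different import sequences. None of them was called in either knockdown comparison, and 0 passed an unadjusted p under 0.05 in limma. Of their summed deposited value, ATP5MC3 held 68.1% to 72.1% in libraries of the ASCL2 line and 56.9% to 58.8% in those of the WiNTRLINC1 line, and ATP5MC1 15.4% to 18.8% and 31.4% to 34.2%. Which gene holds most depends on length, since the longest annotated transcript has 5484 bases for ATP5MC3 and 614 for ATP5MC1. Per kilobase ATP5MC1 held most, 56.2% to 62.2% and 76.4% to 78.8%, and ATP5MC3 held 25% to 29.5% and 14.7% to 16%. On both scales the share of ATP5MC1 was higher in every library of the WiNTRLINC1 line than in any of the ASCL2 line. Between untreated lines ATP5MC2 (-0.88, adjusted p = 4.56e-06) and ATP5MC3 (-0.85, adjusted p = 1.58e-07) were lower, and ATP5MC1 was not called (0.18, adjusted p = 0.128).

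Many of the genes have processed copies elsewhere in the genome that can share their reads. Of the 68, 43 had at least 1 listed pseudogene named after them, 164 in all, and in 14 the copies summed to 20% or more of the gene's own value. Of these 43, 17 were called higher and 7 lower in the ASCL2 line, and 10 of the 25 without a named copy rose and none fell (11 and 1 at an unadjusted p under 0.05). Between untreated lines 30 of the 43 (69.8%) were lower and 5 higher, and 11 of the 25 (44%) were lower and 5 higher. NDUFA4P1 (-1.30) and NDUFB4P12 (-1.74), named after the genes that differed most there, were lower as well. NDUFV2, a core subunit of complex I, was listed at 26 to 71 per library, while NDUFV2P1 was at 495 to 1002. With copies added, the change of NDUFV2 in the ASCL2 line was 0.35 instead of -0.79, so its direction rests on how reads were assigned. NDUFA4P1 had changes of 1.14 and 0.82 in the 2 lines, and COX7CP1 (0.51 and -0.72) and COX7CP2 (0.54 and -0.70) had the signs of COX7C in each. The copies of COX6A1 held 125% of its value and NDUFA9P1 75.4% of that of NDUFA9.

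**Figure D5:**
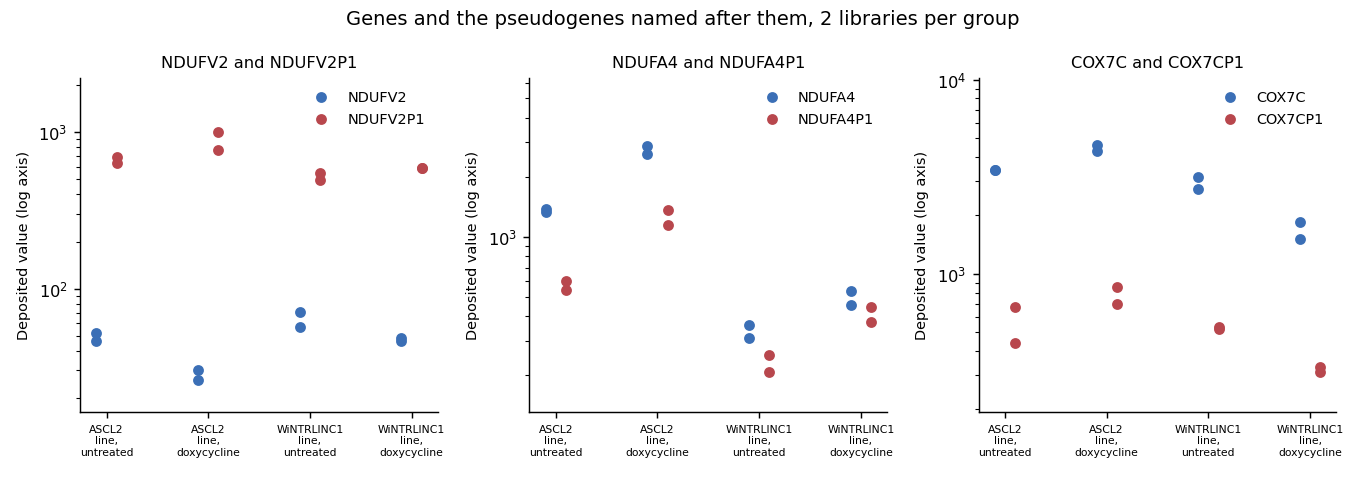
Deposited value (log axis) of NDUFV2, NDUFA4 and COX7C (blue) and of a pseudogene named after each (red) in the 4 groups, 1 point per library. NDUFV2P1 lies above NDUFV2 in every library and has the opposite sign in both lines. NDUFA4P1 and COX7CP1 lie below their genes and have the signs of their genes in both lines.

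Exons of 36 of the genes overlap those of another gene in GENCODE 29, and in 13 the overlapping gene held 20% or more of the value. Use of strand in counting is not given in the sources used here, so reads of such pairs cannot be told apart. NDUFA7 is the clearest case, with a mean of 18.8 beside 5142 for RPS28 on the opposite strand. HIF1AN held 378% of the value of NDUFB8, and YJEFN3, on the same strand, 213% of that of NDUFA13. TIMM8B held 72.5% of the value of SDHD, IK 60.6% of that of NDUFA2, CELF1 96% of that of NDUFS3 and RNF113A 35.8% of that of NDUFA1. EEF1B2 held 84.4% of the value of NDUFS1, and BRAF and ADCK2 held 39.2% and 35.6% of that of NDUFB2.

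Pairs from 1 complex were compared with all pairs of the 68 genes. The median pairwise Pearson r of line-centred log2 values over the 8 libraries, which share line, treatment and depth, was 0.47 in complex IV, 0.38 in complex I, 0.25 in complex III, 0.08 in complex V and -0.14 in complex II. Over all 2278 pairs of the 68 genes it was 0.32, so complex I lay near the whole set and complexes III, V and II below it. Closest to NDUFA4 were UQCRH (0.99), SDHB (0.99) and COX7A2 (0.98), and farthest from it were NDUFA5 (-0.98) and UQCRFS1 (-0.94).

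Assembly factors put the subunits together and insert their cofactors. The counts in this and the next lists stand beside the share of all genes called, 26.6% for ASCL2 cells and 18.6% for WiNTRLINC1 cells, or 46.9% and 34% of coding genes of like value. Of 14 factors of complex I, 7 were called higher and 1 lower in the ASCL2 line and 3 higher in the WiNTRLINC1 line (57.1% and 21.4%). NDUFAF7, a methyltransferase needed for assembly, rose by 0.63 ± 0.10 (adjusted p = 0.00024) in the former, and NDUFAF5 by 0.61 ± 0.12 (adjusted p = 0.0018) in the latter. Of 20 factors of complex IV, 6 rose and 1 fell, and 3 rose and 2 fell (35% and 25% called). COX16 rose in both, from 297 and 312 to 542 and 581 (0.88 ± 0.13, adjusted p = 0.00011) and from 249 and 263 to 339 and 414 (0.55 ± 0.13, adjusted p = 0.0064). COX18, which inserts a mitochondrially made subunit into the membrane, fell in the WiNTRLINC1 line from 387 and 475 to 162 and 178 (-1.33 ± 0.12, adjusted p = 3.5e-06). Of 6 factors of complex III, 1 rose (UQCC1, 0.43) and 2 fell (TTC19, -0.42, and UQCC3, -0.39) in the ASCL2 line, and BCS1L fell by 0.25 in the WiNTRLINC1 line. TTC19 acts on UQCRFS1, and BCS1L brings it into the complex. None of the 4 factors of complex II was called by limma in either line, while 2 and 1 were above 0 at an unadjusted p under 0.05. Of 3 factors of complex V, 2 rose in each line, with ATPAF1 among them in both (0.27 and 0.47).

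Further subunits outside the symbol rule numbered 8, of which 3 rose in the ASCL2 line (ATP5ME, UQCR10 and UQCR11, by 0.26 to 0.52) and 1, ATP5ME, in the WiNTRLINC1 line (0.36, adjusted p = 0.0424). Of 7 isoforms known from other tissues 2 had values high enough to test, and COX6B2 was called in the ASCL2 line at 24 and 19 against 46 and 51 (1.15 ± 0.40, adjusted p = 0.0475). Among 19 carriers and transport proteins 8 rose and none fell in the ASCL2 line (9 and 2 at an unadjusted p under 0.05). CYCS, cytochrome c, went from 2960 and 3257 to 4451 and 4267 (0.49 ± 0.08, adjusted p = 0.00047). SLC25A6, an ADP/ATP carrier, was called at 0.91 ± 0.20 (adjusted p = 0.0030), with untreated libraries as far apart as 1812 and 3527. In the WiNTRLINC1 line 2 rose and 4 fell (42.1% and 31.6% called in the 2 lines), with PDSS2 (-0.68) and COQ3 (-0.60), both of ubiquinone synthesis, among the latter and VDAC1 (0.44) among the former.

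The citric acid cycle feeds the chain with NADH and succinate. Of its 13 listed genes, 5 were called higher and 2 lower with doxycycline in the ASCL2 line, and 4 higher and 1 lower in the WiNTRLINC1 line (53.8% and 38.5%). CS, citrate synthase, was at 8298 and 8596 untreated and 4387 and 4529 treated in the WiNTRLINC1 line (-0.92 ± 0.07, adjusted p = 4.0e-07), and at 6162 and 5880 against 7386 and 7678 in the ASCL2 line (0.32 ± 0.07, adjusted p = 0.0027). The interaction for CS was -1.25 ± 0.10 (adjusted p = 1.14e-06), so the lines differed in direction for this gene, as for COX7C. FH, fumarase, fell in the ASCL2 line (-0.61, adjusted p = 3.6e-05), and OGDH, of the oxoglutarate dehydrogenase complex, rose there (0.48, adjusted p = 0.00016). SUCLA2, of succinyl-CoA synthetase, rose in the WiNTRLINC1 line (0.50, adjusted p = 0.00038).

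Of 14 regulators of mitochondrial genes, 2 were called higher and none lower in the ASCL2 line (3 and 0 at an unadjusted p under 0.05), and 2 higher and 3 lower in the WiNTRLINC1 line (14.3% and 35.7% called). ESRRA, a nuclear receptor known to act on these genes, was at 1734 and 1617 untreated and 764 and 780 treated in the WiNTRLINC1 line (-1.12 ± 0.08, adjusted p = 1.89e-07). In the ASCL2 line it was at 2449 and 2425 untreated and 2760 and 2724 treated (0.17 ± 0.08, adjusted p = 0.118), and the interaction was -1.29 ± 0.11 (adjusted p = 2.3e-06). PPRC1, a coactivator, fell in the WiNTRLINC1 line by 0.39 on the log2 scale. TWNK, the mitochondrial DNA helicase, rose in both (0.49 and 0.33), and YY1 rose in the ASCL2 line (0.24 ± 0.07, adjusted p = 0.0183).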

How the data were processed

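RNA was measured in 8 libraries. Per the labels' protocols, RNA was isolated with Trizol, mRNA was digested with RNase III and libraries were made with an Ion Total RNA-Seq kit and read on the Ion Proton. Tools named in the submitters' processing notes are TopHat2 2.0.9, cutadapt, DESeq and Cufflinks, and builds named there, with no role, are GRCh37, hg19 and mm9. How reads were counted is not given in the sources used here. Each deposited value is a score, a read count scaled per library and then rounded. Among whole numbers 3 to 40, some were used by no gene in 3 libraries and some piled up (over 1.5 times their neighbours) in 4. As the values are not raw counts, the depth in reads is unknown, and precision rests on 2 libraries per group. Symbols were matched for 51959 of 57736 identifiers, and the rest held 1.13% of the values.

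Genes at 10 or more in at least 2 libraries were tested with limma 3.58.1 (R 4.3.3), with a mean-variance trend, on log2(value + 1), over all 8 libraries and 4 groups (4 residual and 10.5 prior degrees of freedom). That scale understates changes of low genes. Calls were at a Benjamini-Hochberg adjusted p under 0.05 over all 22100 genes. The script was tested on simulated data. Alternatives were 2 rescalings, a pseudocount of 5, no filter and a stricter one (50), no trend, groups fitted alone, a replicate block, copies added, and each library left out. Groups fitted alone gave no interaction. Members and lists were chosen with earlier results of these data known. Named genes were those called with a log2 change of at least 0.5, the 2 per complex and direction with the smallest adjusted p, the ATP5MC genes, 9 core subunits, up to 3 called genes per other list, and ASCL2; values of further members are given to account for all. GENCODE 29 gave lengths and overlaps, and its build is not the files' build. Some genes that enter the counts are not reported here by name and are not drawn. SCO2, PECAM1 and the mitochondrially encoded genes are not analysed here.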

Additional observations from a re-analysis of the deposited data

Results flagged for a closer look

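The response to doxycycline differed between the lines in 10 of the genes by the interaction term (WiNTRLINC1 line minus ASCL2 line, limma, adjusted p under 0.05), on the log2 scale. These are 14.7% of the 68 genes, against 15% of all genes tested and 29.1% of coding genes of like value, so the count is not above the background. Complex IV gave COX7C at -1.18 and COX8A at -0.43. Complex V gave ATP5F1A at 0.71, complex II gave SDHC at -0.59, and complex III gave UQCRFS1 at 0.33. In complex I the differences were -0.48 for NDUFA1, 0.61 for NDUFC2, -0.47 for NDUFB4, -0.45 for NDUFS4 and -0.44 for NDUFA2. COX7C and ATP5F1A were called under every alternative that gives an interaction, which the fit of groups alone does not, and SDHC under all but 1 of them. COX8A and NDUFC2 passed the test in neither line alone (adjusted p in the WiNTRLINC1 line 0.0715 and 0.0548). NDUFA1 and NDUFA2 overlap exons of genes on the opposite strand.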

How the results depend on the processing

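Over the 17 alternatives, 89 called results of named genes were followed, those of the interaction without the fit of groups alone. The 2 groups of a comparison hold 4 libraries, and which genes pass near the threshold depends on the estimate of spread. In the ASCL2 line 34 genes were called, 27 of them higher. With median-of-ratios scaling 31 were called (24 higher), and with equal totals 27 (20 higher). Without the filter 18 were called (13 higher), without a trend 11 (7 higher, 4 lower), and leaving out 1 library in turn gave 13 to 33 (8 to 26 higher, 4 to 7 lower). Over all genes these settings called 3410 without a trend and 3665 to 5862 with 1 library left out. In the WiNTRLINC1 line 16 genes were called. Without the filter 7 were called (4 higher, 3 lower; 2395 of all genes), without a trend 1 (0 higher, 1 lower; 1873 of all genes), with the groups fitted alone 9 (5 higher, 4 lower), with median-of-ratios scaling 4 lower, and with 1 library left out 4 to 15 (2 to 9 higher, 1 to 6 lower; 2398 to 4131 of all genes). For the difference of the responses 10 genes were called. Median-of-ratios scaling gave 4 lower, equal totals 3 lower, no filter 3 (1 higher, 2 lower; 1914 of all genes), no trend 2 (1 higher, 1 lower; 1313 of all genes), and 1 library left out 3 to 7 (1 to 3 higher, 2 to 6 lower; 2315 to 2891 of all genes). The cause of these changes was not tested. Between untreated lines the count stayed at 43 to 55. Only NDUFV2 turned its direction, from -0.79 to 0.35 in the ASCL2 line with the values of its named copies added, since NDUFV2P1 is larger than the gene. With the replicate block 34, 16, 10 and 53 genes were called in the 4 comparisons, and 0 of the 89 called results were lost and 2 results gained a call. Over all genes tested, libraries of the same number showed little joint deviation (r of -0.05 for the groups with the ASCL2 hairpin and 0.11 for those with the other). Among the 68 genes, the second library exceeded the first in 20 and 16 in the untreated groups and in 53 and 45 in the treated groups. Such values cannot exclude that the numbers mark shared cultures or days. Reads per library are unknown after scaling, so no limit from depth can be given.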
